A study of Mus musculus with 2 samples.

Results

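The 44 genes described here build and run the DNA replication machinery of the cell, from the proteins that mark an origin to the enzymes that supply nucleotides. They were named as a list, by symbol, and all 44 were found among the 21938 protein-coding genes of GENCODE vM21 on the mm10 (GRCm38) assembly of the mouse genome. They fall into 10 groups by complex or step. Chromatin at these genes was measured by DNase-seq, in which the enzyme DNase I cuts DNA where it is accessible and the cut ends are sequenced. The tissue was liver of mouse embryos at day 13.5, of strain C57BL/6N,129. The genotype shared by all samples was labelled with an LCR deletion together with a globin mutation marked HET. What LCR stands for, how far the deletion reaches, which globin change is meant and how single embryos were typed is left unsaid in the sources at hand. There were 2 libraries, biological replicates 1 and 2, from separate biosamples under the same donor identifier. They form 1 group with no control, and sex was not collected, so no comparison between conditions was possible and no test was made.

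DNA is copied once per cell cycle from origins that are licensed in G1, when the origin recognition complex, Cdc6 and Cdt1 load rings of Mcm2 to Mcm7. In S phase Cdc45 and the GINS complex turn each ring into an active helicase, and polymerases, the sliding clamp PCNA, its loader and the single-strand binding protein RPA follow it. Many of the genes involved are classical targets of E2F factors, which the retinoblastoma protein holds in check until S phase approaches. The fetal liver is filled with dividing red cell precursors, in which DNA replication is known to be tied to maturation.

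In both libraries all 44 genes had a peak of accessible chromatin at a promoter, taken as a peak within 1000 bases of any annotated start. Over all protein-coding genes this held for 54.1% (11868 of 21938). Among genes with a CpG-rich start (an observed to expected CpG ratio of at least 0.6 in the 500 bases on each side) it held for 86.2%, and 37 of the 44 replication genes were of that kind. Another 60 replication pathway genes that are not among the 44, from origin-firing kinases to E2F factors, likewise all had a promoter peak in both libraries. That list was chosen with earlier results of these data known, so it is not an independent comparison. All 44 genes also had a footprint in a promoter peak in both libraries. A footprint is a short stretch within a peak that is cut less than its surroundings, as under a bound protein. Of all genes with a promoter peak in both libraries, 94.2% had such a footprint, a share close to that of the replication genes.

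The libraries held 47198 and 36523 peaks with median values of 1.23 and 1.25, and 123897 and 94430 footprints. Values were whole multiples of 0.0123 in replicate 1 and 0.0139 in replicate 2. Within a peak's value a step would be a single read, if values are reads scaled to depth. The depth would then be about 81200000 and 72100000 reads, and the highest promoter value among the 44 genes, that of Gins2 in replicate 1, would rest on 2002 reads and the lowest, that of Pola1 in replicate 2, on 139. The 95% Poisson intervals below make that assumption and cover counting error only. The sources do not state how values were scaled in each library, so genes are ranked within each library. As a check of the labelled tissue, 7 of 8 erythroid marker genes had a promoter peak in both libraries, and so did 3 of 9 hepatoblast, 1 of 5 macrophage, 1 of 4 megakaryocyte, 1 of 4 endothelial, 1 of 4 stellate, 2 of 4 neuronal and 1 of 3 muscle markers. Of the hepatoblast genes, Foxa3 (9.41 and 4.33), Cebpa (3.06 and 2.16) and Afp (1.15 and 0.624) had a peak in both libraries, while Foxa1, Foxa2, Ttr and Apoa1 had one in replicate 1 alone, of at most 0.826, and Alb and Hnf4a in neither. In bulk tissue, more cells with an open promoter and more cutting per cell cannot be told apart.

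The height of a promoter is given by its highest peak, in the authors' signal units. The 44 genes had a median height of 10.01 in replicate 1 and 5.12 in replicate 2. All genes with a promoter peak had medians of 5.21 (12842 genes) and 3.60 (12144 genes). Of the 44, 39 lay above the median of all genes in replicate 1 and 37 in replicate 2. Above the upper quartile of all genes, 10.1 and 5.50, lay 22 and 20, and none lay below the lower quartile, 1.97 and 1.84. The spread among the 44 was wide, from 3.51 at Tyms to 24.7 at Gins2 in replicate 1, and from 1.93 at Pola1 to 8.66 at Pold1 in replicate 2. The CpG-rich genes with a promoter peak, the closest match in promoter type, had medians of 6.51 and 4.16.

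**Figure D1:**
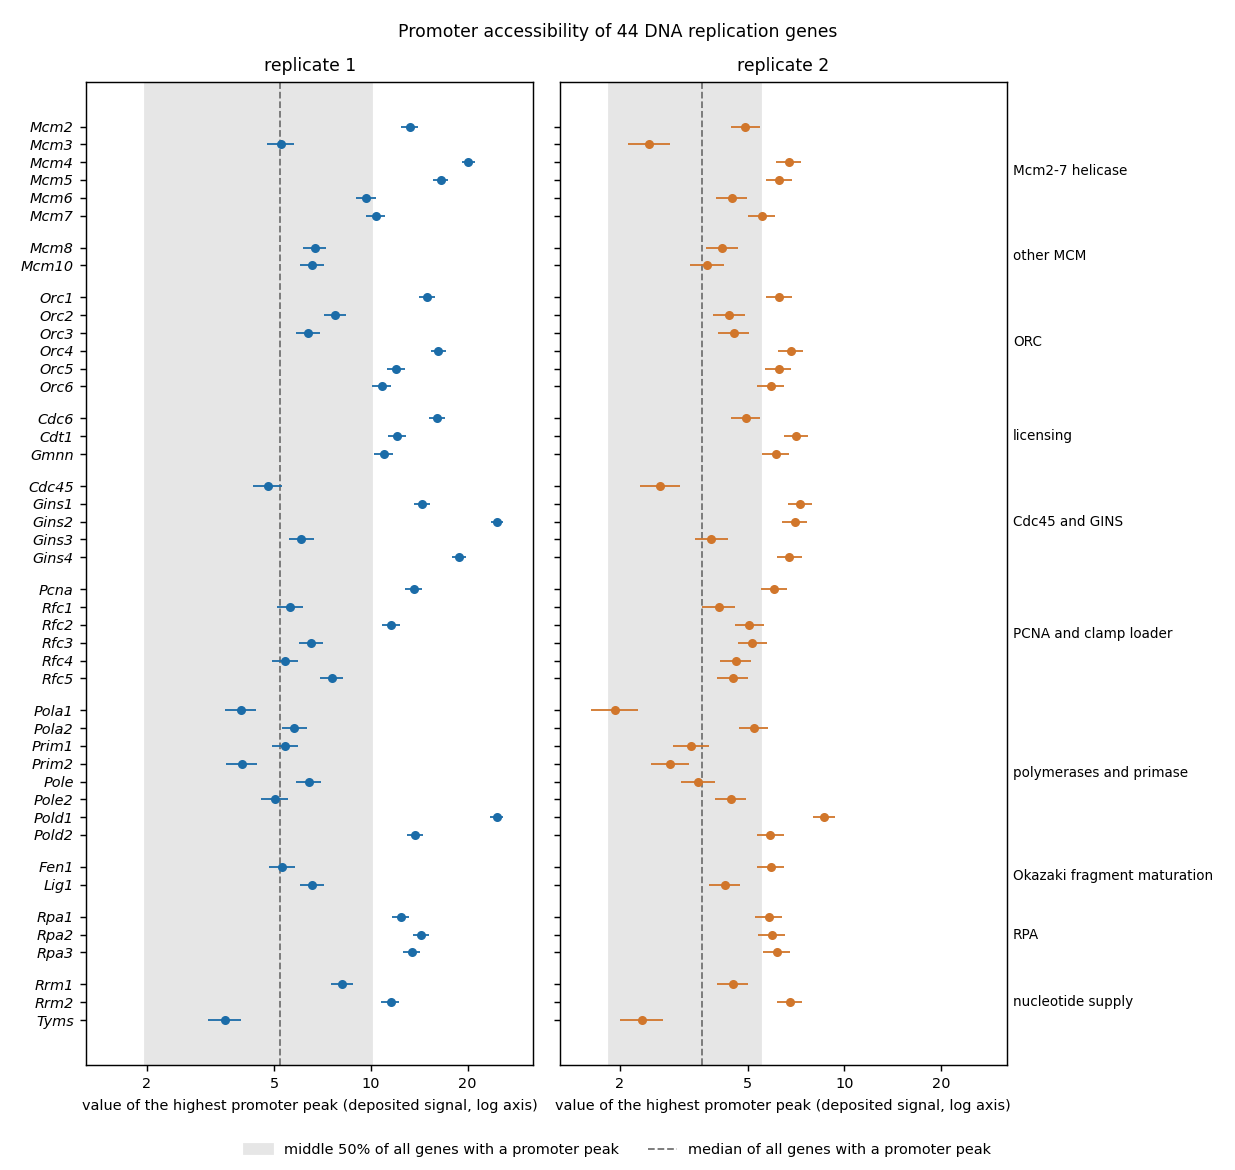
Each point is the highest promoter peak of a gene (x axis, deposited signal, log scale), grouped by complex, with its 95% Poisson interval. The grey band spans the middle 50% of all genes with a promoter peak and the dashed line is their median. Most points lie right of the line in both libraries, with Tyms, Pola1, Prim2 and Cdc45 to its left in both.

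The highest peaks mostly lay near annotated starts, but only peaks within 1000 bases of a start were considered. In 40 of 44 genes the centre of the highest peak lay within 150 bases of an annotated start in both libraries, the exceptions being Mcm4, Cdc45, Gins1 and Lig1. Distances were taken to the nearest of all annotated starts of a gene, and the share over all genes was not computed. These peaks were of ordinary size, with median lengths of 240 and 290 bases against 238 and 260 over all genes. They held 235 footprints in replicate 1 and 231 in replicate 2. The median was 5 per peak in each library, against 4 over all genes and 5 over CpG-rich genes. Of these footprints, 63.0% of replicate 1 overlapped one of replicate 2 and 73.2% the other way, against 55.3% and 65.8% over the highest promoter peaks of all genes. All 44 genes had at least 1 footprint of replicate 1 that was shared, a count that was not made over all genes. The footprints were short, with medians of 12 and 11 bases. In each library 74.0% of them lay at or upstream of the nearest start, which can be an alternative start inside the gene. That share was also not computed over all genes.

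**Figure D2:**
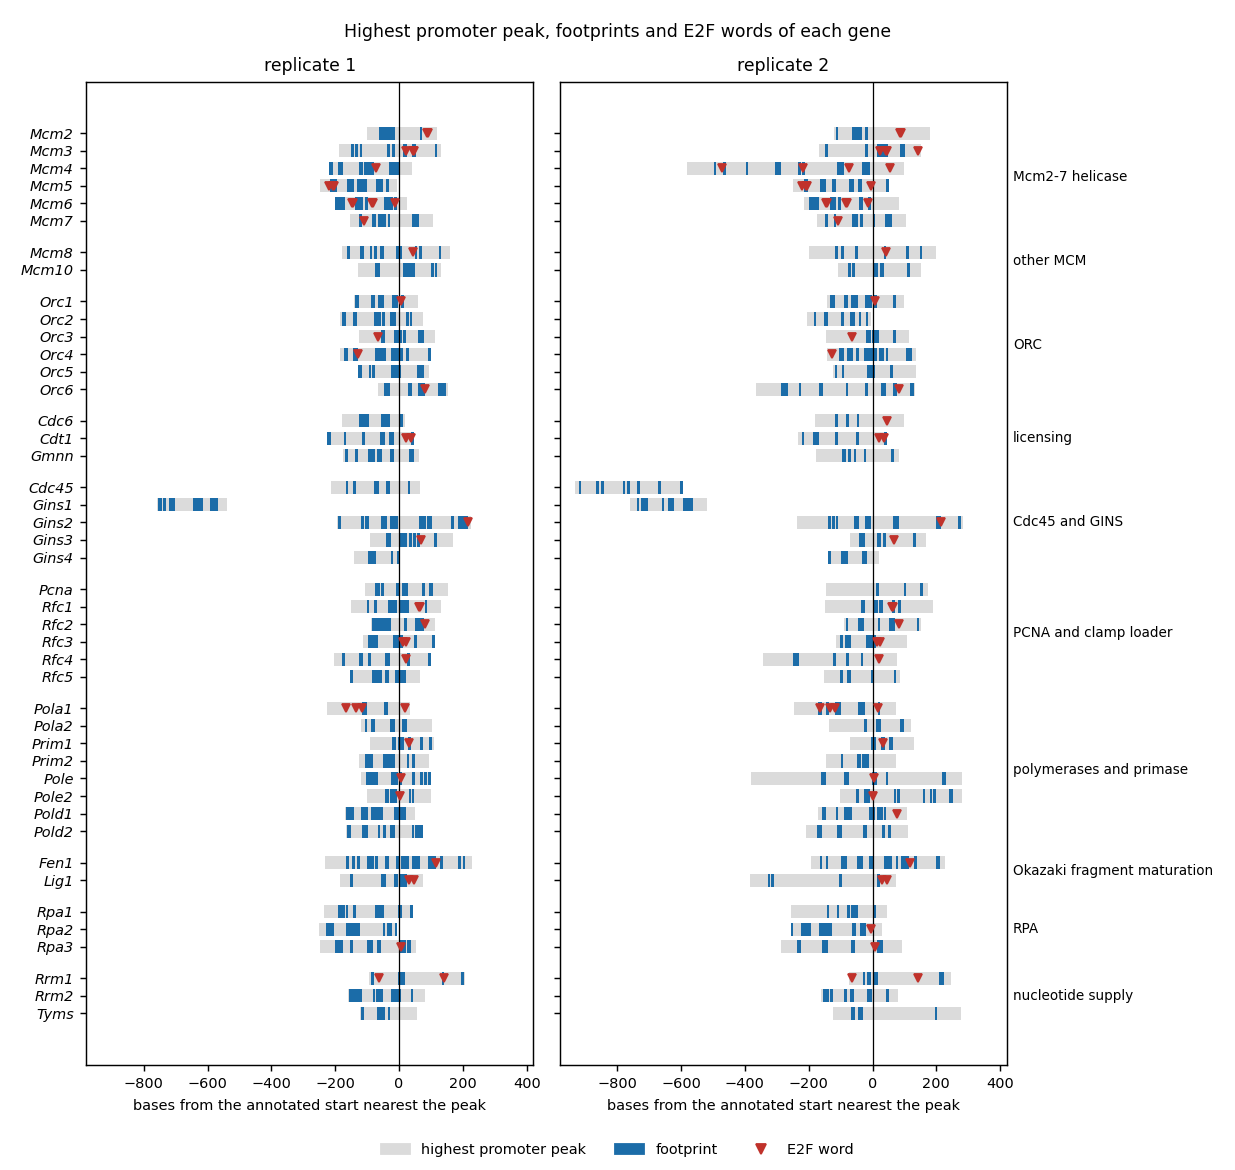
For each gene, the grey bar is the highest promoter peak, blue marks are its footprints and red triangles are E2F words, by distance in bases from the annotated start nearest the replicate 1 peak, with transcription running to the right. Footprints of most genes crowd just upstream of the start, and the peaks of Gins1 in both libraries and of Cdc45 in replicate 2 stand far upstream.

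The promoters below show where those footprints lay. For each group the promoter with the highest mean rank was read from the RefSeq GRCm38.p6 genome, from the highest peak of replicate 1 and outside annotated exons, and those with at least 160 such bases are shown. Each is written 5′ to 3′ on the strand of its gene, and capitals mark bases in a footprint in both libraries. Mcm4 is shown from chr16:15637401-15637620 (minus strand), Orc4 from chr2:48949277-48949460 (minus), Cdt1 from chr8:122567801-122568014 (plus) and Gins2 from chr8:120589305-120589500 (minus). Pold1 is shown from chr7:44548850-44549020 (minus), Rpa2 from chr4:132768081-132768320 (plus) and Rrm2 from chr12:24708081-24708240 (plus). All but the Rpa2 stretch end at the base before a start of their gene.
Mcm4: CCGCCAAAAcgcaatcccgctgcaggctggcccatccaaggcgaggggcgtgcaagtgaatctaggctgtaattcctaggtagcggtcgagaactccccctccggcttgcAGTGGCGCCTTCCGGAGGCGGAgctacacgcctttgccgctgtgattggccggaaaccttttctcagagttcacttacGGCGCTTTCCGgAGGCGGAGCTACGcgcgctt
Orc4: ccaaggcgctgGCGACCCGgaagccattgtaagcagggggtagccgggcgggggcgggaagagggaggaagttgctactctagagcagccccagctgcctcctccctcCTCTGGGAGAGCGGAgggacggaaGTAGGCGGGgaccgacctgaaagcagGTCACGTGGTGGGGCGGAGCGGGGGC
Cdt1: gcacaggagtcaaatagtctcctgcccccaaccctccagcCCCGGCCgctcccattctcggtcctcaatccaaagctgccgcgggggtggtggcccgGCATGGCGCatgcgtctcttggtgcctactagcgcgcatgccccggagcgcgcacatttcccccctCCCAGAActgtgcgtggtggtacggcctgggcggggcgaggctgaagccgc
Gins2: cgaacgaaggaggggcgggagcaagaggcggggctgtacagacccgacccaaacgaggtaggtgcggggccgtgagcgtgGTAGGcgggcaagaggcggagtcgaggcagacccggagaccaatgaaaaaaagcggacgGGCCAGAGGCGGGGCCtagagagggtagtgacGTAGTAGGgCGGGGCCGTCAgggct
Pold1: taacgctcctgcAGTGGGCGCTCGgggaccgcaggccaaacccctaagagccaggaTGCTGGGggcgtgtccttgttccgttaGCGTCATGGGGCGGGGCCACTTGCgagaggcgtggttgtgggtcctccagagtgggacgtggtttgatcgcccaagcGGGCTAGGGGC
Rpa2: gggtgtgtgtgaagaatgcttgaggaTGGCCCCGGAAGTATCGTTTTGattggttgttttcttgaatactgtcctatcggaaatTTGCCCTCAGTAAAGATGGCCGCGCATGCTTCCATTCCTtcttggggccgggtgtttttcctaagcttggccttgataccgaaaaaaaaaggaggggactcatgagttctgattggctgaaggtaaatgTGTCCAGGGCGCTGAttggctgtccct
Rrm2: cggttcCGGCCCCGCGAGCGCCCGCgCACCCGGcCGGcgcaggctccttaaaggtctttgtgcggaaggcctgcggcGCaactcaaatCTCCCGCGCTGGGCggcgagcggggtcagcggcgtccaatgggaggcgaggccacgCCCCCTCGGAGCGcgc
Shared footprints covered 55 of the 220 bases of Mcm4, 58 of 184 in Orc4, 23 of 214 in Cdt1, 40 of 196 in Gins2, 54 of 171 in Pold1, 76 of 240 in Rpa2 and 58 of 160 in Rrm2. In Orc4 the E-box word CACGTG stands in such capitals near the start, and in Rpa2 a single run of capitals takes in a YY1 and an NRF1 word. The corresponding stretches of Mcm8, Pcna and Fen1 were only 85, 42 and 36 bases long and are not shown.

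Among the transcription factor words searched, E2F words differed most in share between the replication genes and all genes. The word TTCCCGC was searched on both strands, along with the form TTGGCGC and the rarer forms TTCGCGC or, lastly, TTGCCGC, a narrow reading of the E2F consensus. In replicate 1, 26 of 44 highest promoter peaks (59.1%) held a word, against 18.3% of the highest promoter peaks of all genes (2350 of 12842) and 20.8% of those of CpG-rich genes. In replicate 2 the count was 29 of 44 (65.9%) against 21.8%. All 26 of replicate 1 held a word in replicate 2 as well, and Cdc6, Pold1 and Rpa2 were added. The other 60 pathway genes had 26 (43.3%) and 35 (58.3%). Of the 26 genes, 23 had a word centred within 100 bases of a start (88.5%, against 62.3% of all genes with a word). That closeness was not particular to E2F words. In replicate 1 the shares were 96.4% against 70.9% for the NFY word CCAAT and 93.9% against 76.1% for the SP word GGGCGG.

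By complex, all 6 genes of the Mcm2-7 ring had an E2F word in both libraries, as did both Okazaki fragment genes (Fen1 and Lig1). The origin recognition complex and the clamp with its loader had 4 of 6 each, and the polymerases and primase 4 of 8. Cdc45 and GINS had 2 of 5 (Gins2 and Gins3), the additional MCM proteins 1 of 2 (Mcm8), and licensing, RPA and nucleotide supply 1 of 3 each (Cdt1, Rpa3 and Rrm1). Mcm6 had 5 words in its peak in each library and Pola1 had 4, and in replicate 2 the peaks of Mcm3, Mcm4 and Mcm5 also held 4. Overlapping words were counted separately, so at Mcm3, Mcm5 and Mcm6 words outnumbered separate sites. The 15 genes without a word in the highest promoter peak of either library were Mcm10, Orc2, Orc5, Gmnn, Cdc45, Gins1, Gins4, Pcna, Rfc5, Pola2, Prim2, Pold2, Rpa1, Rrm2 and Tyms. Further promoter peaks, as at Gins1, Cdc45, Pcna, Gmnn and Rrm2, were not part of this count. A match is a description of the letters and not a bound site, and no match says only that these letters were not in these peaks.

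In 10 of the 44 genes (22.7%) an E2F word wholly inside the highest promoter peak lay in a footprint, widened by 5 bases on each side, in both libraries. The same held for 4.66% of all genes with a promoter peak in both libraries (553 of 11868) and for 11 of the 60 other pathway genes (18.3%). Given a word in the highest peak of both libraries, it held for 10 of 26 replication genes and 553 of 1990 genes in all. Among the other pathway genes with such a word it was 11 of 26. At Mcm4 an E2F word also lay in a widened footprint in both libraries, but it crossed the edge of the replicate 1 peak and was not counted. The 10 counted sites are printed because sequence and footprint meet there. Each line gives 30 bases 5′ to 3′ on the strand of the gene, with every E2F word in capitals, on either strand, and at Mcm3 and Mcm5, where several words qualified, only the most upstream site is shown. They come from RefSeq GRCm38.p6 at chr1:20820276-20820305 (minus strand, Mcm3), chr8:75109346-75109375 (plus, Mcm5), chr1:128359664-128359693 (minus, Mcm6), chr4:108579416-108579445 (plus, Orc1) and chr8:122568037-122568066 (plus, Cdt1). The others lie at chr8:120589075-120589104 (minus, Gins2), chr5:151651200-151651229 (minus, Rfc3), chrX:93632259-93632288 (minus, Pola1), chr10:128015189-128015218 (plus, Prim1) and chr5:110286332-110286361 (plus, Pole).
Mcm3: taaacttccgtgGCGGGAAaacttgggaag
Mcm5: cgccaagaactTTCGCGCCAAaacgtccag
Mcm6: agccggaggcgcGCGCGAAgtggcagcgcg
Orc1: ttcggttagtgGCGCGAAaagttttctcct
Cdt1: gaactacctttTTGGCGCcatggcgcaaag
Gins2: ccccgcgcggtgGCGGGAAagaagtgcctg
Rfc3: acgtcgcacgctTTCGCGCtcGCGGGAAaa
Pola1: aaatgcactcccGCGGGAAggccgggggcg
Prim1: ggcctgtcttgTTCCCGCcaattctcgtgt
Pole: acgtggagagcGCGCCAAattctccccgga
Counted from the nearest annotated start of each gene, with upstream bases negative, the footprinted words of Mcm6, Orc1, Rfc3, Prim1 and Pole lay between position -17 and position 10. Those of Mcm3 and Cdt1 began at positions 19 and 22, inside the transcript. The words of Pola1 and Mcm5 lay farther upstream, from positions -121 and -212. The Gins2 word began at position -58, but its nearest start is an alternative start inside the gene. Counted from the start nearest the replicate 1 peak of Gins2, the word lay downstream, at positions 212 to 218. The Mcm5 window holds overlapping E2F words on opposite strands, and the Rfc3 window holds a pair of words side by side.

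The CCAAT word bound by NFY, a factor common at cell cycle promoters, was the next feature. It was in the highest promoter peak of both libraries in 27 of 44 genes (61.4%), against 32.5% of all genes with such peaks and 38.3% of the other pathway genes. It lay in a footprint in both libraries in 10 genes (22.7% against 10.1%), namely Mcm6, Mcm7, Mcm10, Orc1, Orc2, Gins3, Pola1, Prim1, Pold2 and Rpa2. Of these, Mcm6, Orc1, Pola1 and Prim1 also had a footprinted E2F word. The SP word GGGCGG was common everywhere, in 32 of 44 genes (72.7%) against 66.1%, and in a footprint in 27 (61.4% against 41.9%). The ETS word CCGGAAG was in 14 (31.8% against 17.8%), with a footprint over it in 6, Mcm4, Rfc3, Rfc4, Rpa2, Rpa3 and Tyms (13.6% against 5.38%).

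The other words were less frequent. NRF1, a factor of housekeeping promoters, has the word GCATGCG. It was in 4 genes, Orc3, Cdt1, Pold2 and Rpa2 (9.09% against 6.78%), and lay in a footprint in both libraries in all 4 (9.09% against 5.25%). The E-box CACGTG was in 7 (15.9% against 9.03%) and in a footprint in 4, Mcm8, Orc4, Fen1 and Tyms (9.09% against 2.28%). The YY1 word AAGATGG was in 4 (9.09% against 6.29%) and in a footprint in Rpa2 (2.27% against 1.43%), shares near those of all genes. The printed Rpa2 promoter also holds NFY, ETS and NRF1 words. The CRE word TGACGTCA was in Mcm5 and Orc5 (4.55% against 3.72%), with a footprint at Mcm5 (2.27% against 2.43%), again near the shares of all genes. The CHR word TTTGAA, known from late cell cycle promoters, was in 2 genes (4.55% against 4.70%) and in no shared footprint. The KLF word CCACACC was in Mcm2, Gmnn and Prim2 (6.82% against 5.48%). The erythroid GATA word AGATAA was in none of the 44 highest promoter peaks in both libraries, against 2.23% of all genes. In a fixed 300-base window at the start it was in 2 of the 44 (4.55%), against 6.09% of genes with a promoter peak in both libraries.

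**Figure D3:**
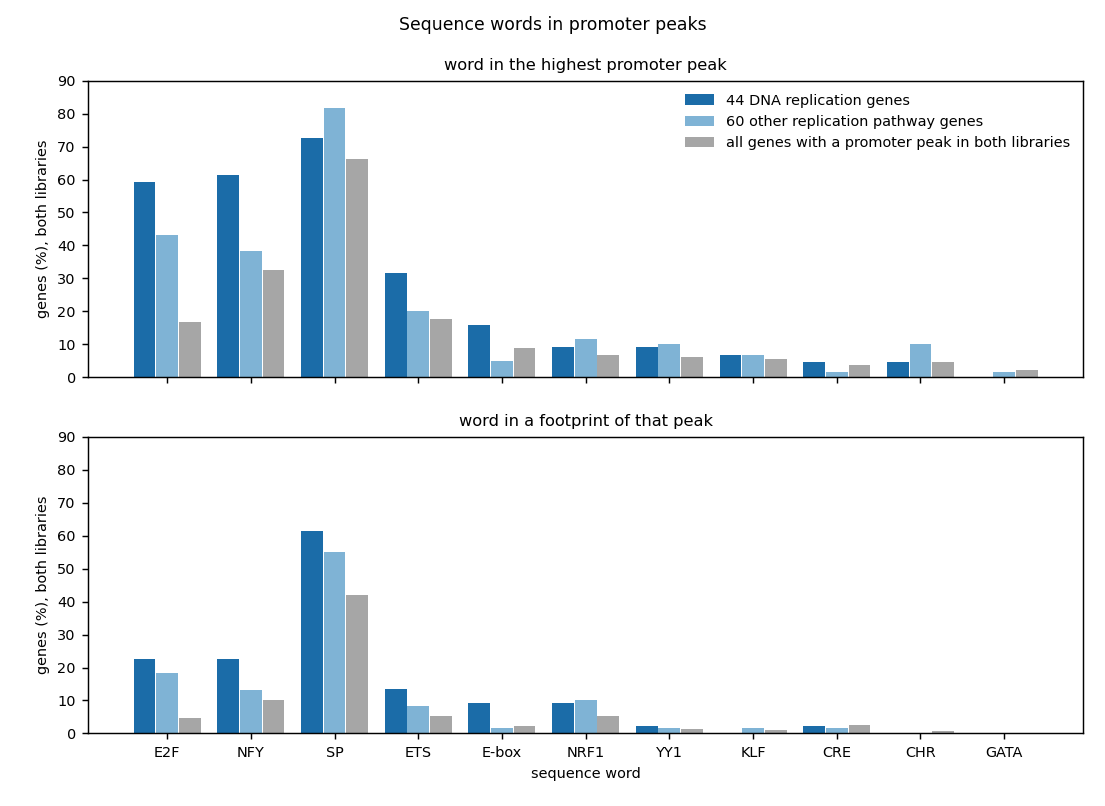
Bars give the percent of genes with each word in the highest promoter peak of both libraries (top) or in a footprint of that peak in both (bottom), for the 44 replication genes, the 60 other pathway genes and all genes with a promoter peak in both libraries. The E2F bars of the replication genes reach 59.1% and 22.7% against 16.8% and 4.66% for all genes. The GATA bars of the replication genes are at 0, against 2.23% and 0.278% for all genes.

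Mcm2 to Mcm7 form the ring-shaped replicative helicase and their promoters differed widely in height. Mcm4 had the highest promoter of the 6, with 20.1 (19.2 to 21.1) in replicate 1 and 6.72 (6.14 to 7.35) in replicate 2, at chr16:15637361-15637620 and chr16:15637301-15637980. Mcm3 had the lowest, with 5.25 (4.76 to 5.77) and 2.47 (2.12 to 2.86), at chr1:20820181-20820500 and chr1:20820161-20820480. The intervals of Mcm4 and Mcm3 lay apart in each library. Mcm5 (16.5 and 6.28), Mcm2 (13.2 and 4.92), Mcm7 (10.3 and 5.53) and Mcm6 (9.67 and 4.46) lay between. Mcm4 shares its upstream region with Prkdc, a DNA repair kinase gene that starts 466 bases away on the other strand. A further peak on the Prkdc side had 7.74 in replicate 1 and 5.46 in replicate 2, and the long Mcm4 peak of replicate 2 runs into it. Mcm7 likewise lies 160 bases from Ap4m1, which codes for an adaptor protein of vesicle transport.

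Mcm8, a helicase of recombination repair, and Mcm10, an initiation factor, do not belong to the ring. Mcm8 had 6.68 and 4.16 and Mcm10 had 6.57 and 3.74, with overlapping intervals in both libraries (6.13 to 7.27 and 6.02 to 7.15 in replicate 1, 3.70 to 4.66 and 3.31 to 4.22 in replicate 2). Neither had a distal peak shared by both libraries within 50000 bases. Mcm8 starts 86 bases from Trmt6, a tRNA methyltransferase subunit gene.

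The origin recognition complex binds origins and recruits the other licensing factors. Its 6 genes all lay above the median of all genes, with Orc4 highest at 16.2 (15.3 to 17.1) and 6.81 (6.22 to 7.44), at chr2:48949181-48949460 and chr2:48949141-48949420. Orc1, an ATP-binding subunit, had 14.95 and 6.25. Orc5 (12.0 and 6.24) and Orc6 (10.8 and 5.89) followed. Orc2 (7.73 and 4.38) and Orc3 (6.37 and 4.53) were lowest, and by mean rank Orc3 was the lower of them. The intervals of Orc2 and Orc3 overlapped in replicate 2 (3.91 to 4.89 and 4.06 to 5.05) and lay apart in replicate 1 (7.13 to 8.36 and 5.83 to 6.94). In 4 of these 6 genes another protein-coding gene starts within 1000 bases on the other strand: Prpf38a at 87 bases from Orc1, Rars2 at 13 from Orc3, Mbd5 at 26 from Orc4 and Vps35 at 25 from Orc6.

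Cdc6 and Cdt1 load the MCM ring, and geminin (Gmnn) binds Cdt1 to block reloading in S phase. Cdt1 had 12.0 (11.3 to 12.8) and 7.07 (6.47 to 7.71), at chr8:122567801-122568060 and chr8:122567781-122568060. Its inhibitor Gmnn had 10.9 (10.2 to 11.7) and 6.11 (5.56 to 6.71), close to Cdt1 and with overlapping intervals in both libraries. Cdc6 had 16.1 (15.2 to 17.0) in replicate 1 but 4.94 (4.44 to 5.48) in replicate 2, so it was the highest of the 3 in replicate 1 and the lowest in replicate 2. The peaks of Cdc6 overlapped, at chr11:98907621-98907820 and chr11:98907621-98907900.

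Cdc45 and GINS complete the active helicase. Gins2 had the highest promoter of all 44 genes in replicate 1, with 24.7 (23.6 to 25.8), and 7.01 (6.42 to 7.65) in replicate 2, at chr8:120589081-120589500 and chr8:120589021-120589540. Gins4 had 18.8 and 6.74 and Gins3 had 6.08 and 3.85. The highest peak of Gins1, with 14.5 and 7.29, was centred at positions -649 and -639 from its nearest start, by the start of Abhd12, a lipase gene on the other strand. A second peak of Gins1, at other annotated starts of the gene, had 12.1 and 6.32. Cdc45 was the lowest of the group, with 4.77 (4.31 to 5.27) and 2.68 (2.31 to 3.08), and its highest peaks were different sites. The highest of replicate 1 was centred at position -75 from a start (chr16:18811561-18811840), and the highest of replicate 2 at position -404 (chr16:18812221-18812560). Each library also had the other site, at 2.97 in replicate 1 and 2.33 in replicate 2. The nearest start of Ufd1, which codes for a cofactor of a protein-unfolding machine, is 153 bases from a start of Cdc45.

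PCNA, the clamp that tethers polymerases, had the highest promoter of its group, with 13.6 (12.8 to 14.4) and 6.04 (5.49 to 6.64), at chr2:132253161-132253420 and chr2:132253141-132253460. The 5 clamp loader genes lay lower. Rfc2 had 11.6 and 5.06, Rfc5 had 7.54 and 4.49, Rfc3 had 6.51 and 5.17 and Rfc4 had 5.41 and 4.59. Rfc1, the large subunit, was lowest by mean rank with 5.61 (5.10 to 6.15) and 4.06 (3.61 to 4.55). In replicate 2 the intervals of Rfc1, Rfc4 and Rfc5 overlapped.

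Among the 8 polymerase and primase genes, the polymerase delta genes were highest. Pold1, the catalytic subunit for the lagging strand, had 24.6 (23.6 to 25.7) and 8.66 (7.998 to 9.37), at chr7:44548801-44549020 and chr7:44548741-44549020, and Pold2 had 13.7 and 5.88. Polymerase alpha and primase lay down primers, and Pola1, the catalytic subunit, had the lowest promoter of the 8. Pola1 had 3.94 (3.52 to 4.40) and 1.93 (1.62 to 2.28), at chrX:93632121-93632380 and chrX:93632081-93632400. Prim2 had 3.97 and 2.87, also below the median of all genes in both libraries, and Prim1 had 5.40 and 3.33. Pola2 had 5.78 and 5.23, above that median in both libraries. Of the polymerase epsilon genes, Pole had 6.40 and 3.51 and Pole2 had 5.02 and 4.42. Pola1 is the only X-linked gene of the 44, and the number of X chromosomes in the sample is unknown because sex was not collected.

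Fen1 and Lig1 trim and join Okazaki fragments. Fen1, a flap nuclease, had 5.29 (4.798 to 5.81) and 5.91 (5.36 to 6.49), at chr19:10203841-10204300 and chr19:10203841-10204260. Lig1, the ligase, had 6.57 (6.02 to 7.15) and 4.24 (3.78 to 4.75), at chr7:13278641-13278900 and chr7:13278441-13278900. The Fen1 peak held 13 and 11 footprints, the most of the 44 genes in each library, and 9 of the 13 were shared. At 460 bases it was the longest of the 44 in replicate 1, and Tmem258, a subunit gene of the glycosylation enzyme OST, starts 49 bases away. Lig1 has Zswim9 at 105 bases.

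The 3 genes of RPA, which coats single-stranded DNA, lay close together. Rpa2 had 14.4 (13.6 to 15.2) and 5.95 (5.40 to 6.54), Rpa3 had 13.4 (12.6 to 14.2) and 6.16 (5.60 to 6.76), and Rpa1 had 12.4 (11.6 to 13.2) and 5.82 (5.28 to 6.41). The peaks of Rpa2 and Rpa1 were at chr4:132768081-132768320 and chr11:75348281-75348560 in replicate 1. The intervals of the 3 genes overlapped throughout in replicate 2, and in replicate 1 only those of Rpa2 and Rpa1 lay apart. Rpa1 has Smyd4 at 109 bases and Rpa3 has Umad1 and Gm45062, the nearer at 115 bases.

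Rrm1 and Rrm2 code for ribonucleotide reductase, which makes deoxynucleotides, and Tyms for thymidylate synthase. Rrm2, the subunit limiting in S phase, had 11.5 (10.8 to 12.3) and 6.77 (6.18 to 7.39), at chr12:24708081-24708320 in both libraries. Rrm1 had 8.13 and 4.49. Tyms had the lowest promoter of the 44 in replicate 1, with 3.51 (3.12 to 3.94) and 2.34 (2.00 to 2.72), at chr5:30073561-30073740 and chr5:30073341-30073740. The order Rrm2, Rrm1, Tyms held in both libraries with intervals apart.

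Values were lower in replicate 2 at 42 of the 43 genes whose highest peaks overlapped between libraries, where the log2 of replicate 2 over replicate 1 had a median of -0.88 (-1.81 to 0.16). Of all 11134 genes with such peaks, 10193 were likewise lower in replicate 2. Their median was -0.71, and the 5th and 95th percentiles were -1.43 and 0.13. Higher peaks had lower ratios in general, so the running median of the ratio along peak height, over peaks paired between libraries, was subtracted. The 43 genes then centred near all others, with a median excess of -0.04 against 0.03. Fen1 had an excess of 0.93, above 99.2% of genes, and was the only one of the 43 that was higher in replicate 2. Cdc6 (-0.66) and Gins2 (-0.60) lay below the 5th percentile of -0.56, and no gene but Fen1 lay above the 95th of 0.64. Pola2 came closest to it with 0.61. With 1 group of 2 libraries, whether such excesses recur was not tested.

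**Figure D4:**
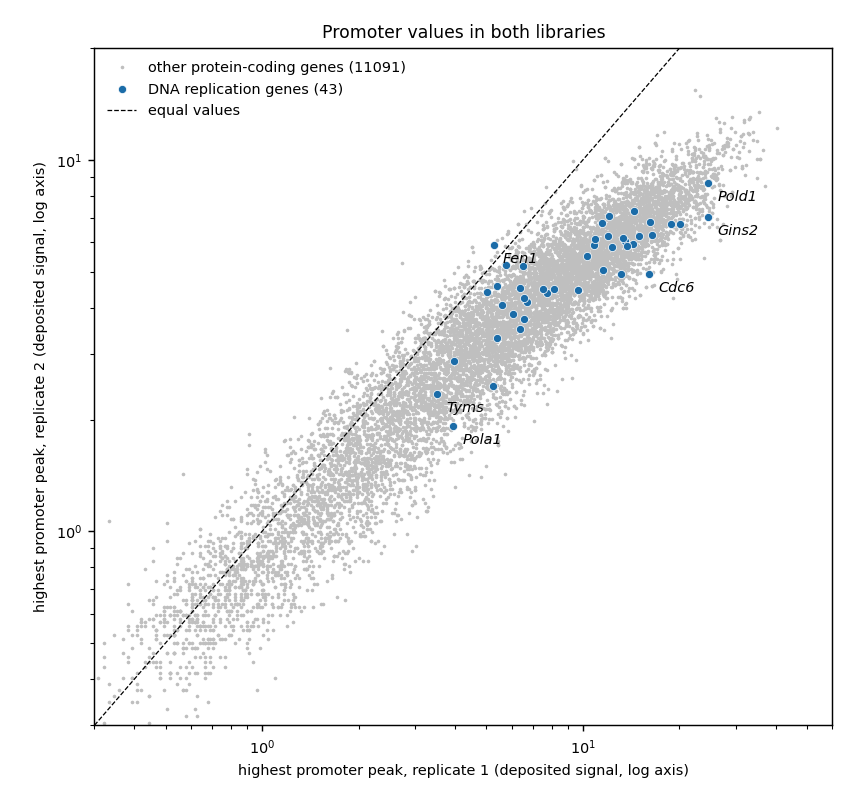
Highest promoter peak of each gene in replicate 1 (x axis) and replicate 2 (y axis), in deposited signal units on log axes, for 43 replication genes (blue) and 11091 other protein-coding genes (grey). All blue points but Fen1 lie below the dashed line of equal values, and Cdc6 and Gins2 lie low in the cloud for their height.

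Many replication genes share their upstream region with another gene. In 14 of the 44 genes (31.8%) a different protein-coding gene starts on the other strand within 1000 bases upstream, against 11.0% of all protein-coding genes and 18.8% of those with a promoter peak in both libraries. Among the 60 other pathway genes it was 31.7%. The 14 are Mcm4, Mcm7, Mcm8, Orc1, Orc3, Orc4, Orc6, Cdc45, Gins1, Pole, Fen1, Lig1, Rpa1 and Rpa3, and the partner of Pole, Pxmp2, starts 120 bases away. A peak there can belong to either gene. Heights with such a partner (medians 10.6 and 5.86) and without (8.90 and 4.93) overlapped, running from 4.77 to 20.1 and from 3.51 to 24.7 in replicate 1.

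Away from promoters, distal peaks were counted where they lay over 1000 bases from any annotated start, within 50000 bases of the gene body, and overlapped between libraries. There were 64 such peaks, or 63 sites after overlapping ones were merged, a mean of 1.45 per gene against 1.26 over all protein-coding genes and 1.61 over those with a promoter peak in both libraries. The difference from all genes depended on the peak lists, with means of 0.659 against 0.670 in the shorter lists and 2.23 against 2.23 in replicate 1 alone. At least 1 was found at 29 of 44 genes (65.9%), against 54.7% of all protein-coding genes and 67.3% of those with a promoter peak in both libraries, and 15 genes had none. The 64 peaks were low, with median values of 1.82 and 1.21. All shared distal peaks in the genome had 1.41 and 1.05.

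Most of these sites cannot be assigned to the replication gene by position. Only 4 lay inside the body of the gene counted, in introns of Prim2, Orc2 and Cdc6 and at an exon of Pola2. Of the 64, 35 were intergenic, 22 in introns and 7 over exons, and a median of 4 protein-coding genes lay within 50000 bases of each. For 3 peaks, at Prim2, Orc5 and Rfc3, no other protein-coding gene lay that near. The intronic Prim2 peak, at chr1:33574601-33574800, had 2.83 and 1.62 and holds a GATA word. Over all 64 peaks a GATA word was in 12 (18.8%), against 16.6% of all shared distal peaks.

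Pola2 had the most distal peaks, 8, of which 3 lay in Cdc42ep2, 1 in Capn1 and 3 between 1139 and 3459 bases from the gene. Rpa1 had 5, and Cdc6, Cdt1, Gmnn, Gins2 and Pole had 4 each. The 4 of Cdt1 all lay in introns of other genes, 3 of them of Piezo1, a mechanosensitive channel gene active in red cells, and the highest of these had 4.39 and 2.57. Of the 4 of Gins2, all in introns of other genes, none was above 2.34. The highest distal peak near any of the 44 was at chr8:75083881-75084100, with 10.9 and 4.52. It lies 25469 bases from Mcm5 but only 4740 from the nearest start, and Hmox1, the heme oxygenase gene, and Tom1 are its other neighbours. The next was a peak 1181 bases from Rrm2 with 5.85 and 3.08. The other 62 had at most 4.39 in replicate 1.

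**Figure D5:**
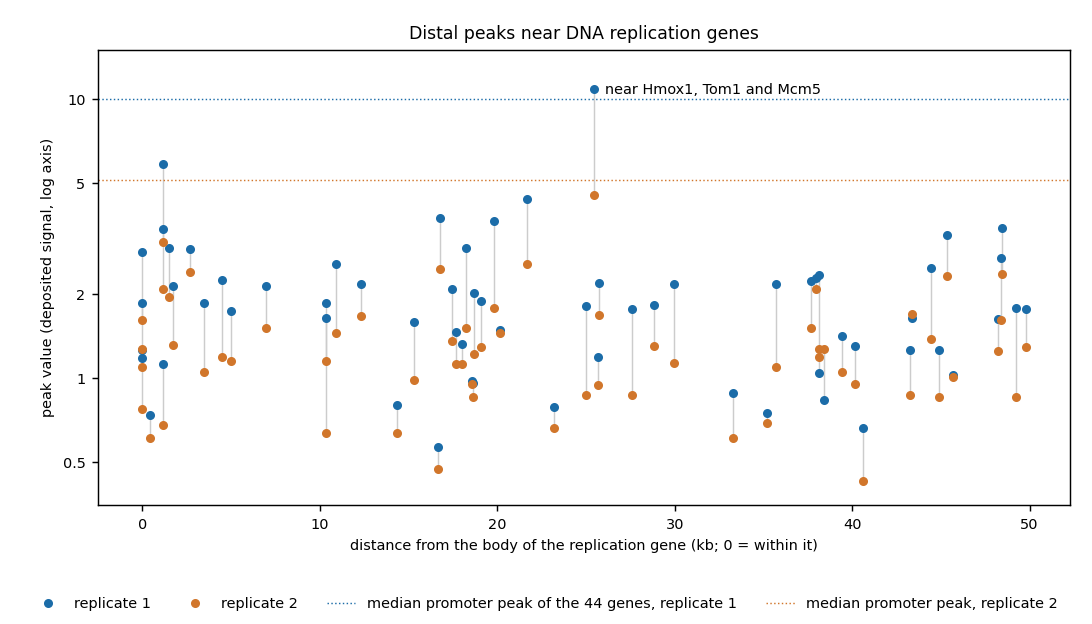
Each pair of joined points is a distal peak near a replication gene, with its values in replicate 1 (blue) and replicate 2 (orange) in deposited signal units on a log axis, by distance in kb from the gene body. The dotted lines are the median promoter heights, 10.01 and 5.12, and 1 peak, near Hmox1, reaches the line of replicate 1.

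The deposited false discovery rate of the cut rate, listed where below 0.05, was read for the highest promoter peaks of the 44 genes only, and its level over other peaks was not computed. The log10 of the lowest rate within a peak ranged from -130.9 at Orc4 to -16.2 at Prim2 in replicate 1, with a median of -46.5. In replicate 2 it ranged from -70.1 at Cdt1 to -8.9 at Tyms, with a median of -33.4.

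The 60 other pathway genes had median heights of 8.69 and 5.42, from 2.19 to 25.3 in replicate 1, and a mean of 1.57 shared distal peaks. The highest by mean rank were Dck, a nucleoside salvage kinase (25.3 and 9.01), Dtl, the adaptor that targets Cdt1 for decay in S phase (22.1 and 9.30), and Chaf1b, a subunit of the histone chaperone CAF-1 that works with PCNA (18.6 and 8.91).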

How the data were processed

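Libraries of 2 fetal liver biosamples were processed by the authors, each from its own filtered alignments to mm10, per the deposited description of the files. Peak callers, versions, thresholds and the scaling of values are not stated in those sources. The deposited peak lists give a signal value per peak, and the longer list of each library was used. The deposited footprint lists carry a constant score, so only positions were read. The deposited cut-rate tables give a false discovery rate, a q-value listed below 0.05. No signal track was used.

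Gene models were those of GENCODE vM21 on 21 chromosomes, and sequence from RefSeq GRCm38.p6. Peaks were shared where they overlapped by at least 1 base. The running median spanned 2001 of 26687 peaks that paired 1 to 1. Words were sought on both strands. Scripts used Python 3.11.15, numpy 2.4.6, pandas 2.3.3, scipy 1.17.1 and matplotlib 3.10.9, and were tested on simulated data. Members and lists were chosen with earlier results of these data known. Described in full were, per complex, the genes of highest and lowest mean rank, genes outside the 5th to 95th percentile of the excess ratio, and those with the most distal peaks. The alternatives tried were other distances, peak lists, value limits, transcript sets and overlaps, and leaving out each library.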

Additional observations from a re-analysis of the deposited data

How the results depend on the processing

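Of the 44 genes, 44 had a promoter peak and 44 a promoter footprint under every alternative run, as did all 60 other pathway genes for the peak. Median heights stayed at 10.01 and 5.12, and of 528 values of single genes only those of Gins1 changed, to 12.1 and 6.32 at 500 bases and with 2 narrower sets of transcripts. The share of all protein-coding genes with a promoter peak ran from 45.8% with the upper 50% of peaks to 56.1% at 2500 bases, and from 55.4% to 58.5% with a single library. Genes with an E2F word numbered 22 of 44 in a fixed 300-base window and 26 to 29 with a single library. That window held an E2F word in 12.1% of all protein-coding genes and 18.1% of those with a promoter peak in both libraries. The count of shared distal peaks, 64, moved most. It was 32 within 20000 bases, 113 within 100000 bases, 29 with the shorter lists, 29 with the upper 50% of peaks, and 74 to 98 with a single library, where the higher count came without replicate 2. The mean per gene among the 44 against all genes was then 0.727 against 0.690, 2.57 against 2.16, 0.659 against 0.670 and 0.659 against 0.597, in the same order, then 1.68 against 1.5 without replicate 1 and 2.23 against 2.23 without replicate 2. An alternative with starts of protein-coding transcripts only was chosen after seeing the data. No paired analysis was possible because there was 1 group. With 2 libraries and no control, the spread between replicates cannot be told from a difference in scaling.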
